A study of Mus musculus with 6 samples.

Results

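The genes of MHC class II antigen presentation were described in RNA-seq of CD8T cells cocultured with macrophages. They are 10 of the 54532 genes in the deposited table, chosen by symbol: the classical chains H2-Aa, H2-Ab1 and H2-Eb1, the invariant chain Cd74, the peptide editor chains H2-DMa, H2-DMb1 and H2-DMb2, the editor's partner chains H2-Oa and H2-Ob, and the class II transactivator Ciita. Both groups held primary mouse CD8T cells that were taken from the spleen, stimulated by beads coated with anti-CD3/CD28, and then cocultured with peritoneal macrophages, which had been elicited with thioglycolate and activated with IFN-γ. The 3 control libraries came from cocultures with macrophages without DB2313, and the 3 DB2313 libraries from cocultures with DB2313-treated macrophages, DB2313 being a small-molecule inhibitor of Spi1 (also named PU.1), a transcription factor of myeloid and B cells. The paper describes the cells as CD8T cells and macrophages, whereas the labels name primary T cells and DC cells. The strain and age of the mice behind these cultures and the number of mice behind each library are not named in the sources used here, and nothing says that the 3 libraries of a group came from separate cultures, so p-values measure only the spread between these samples, which may be technical.

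MHC class II molecules are pairs of an α and a β chain that show peptides from endosomes to CD4 T cells. Dendritic cells, B cells and macrophages carry them, and macrophages raise them strongly on exposure to IFN-γ, whereas mouse T cells make little of them. Ciita is the coactivator that switches these genes on. It does not bind DNA itself, but docks on a complex that holds the X box (bound by the RFX factors and CREB) and the Y box (bound by NF-Y) just upstream of each gene.

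The X box is known to stand upstream of the Y box at a nearly constant distance. In RefSeq promoter windows of GRCm38.p6, from 250 bases before to 50 bases after each annotated start, 7 of the 10 members had an entry. H2-Ab1, Cd74 and Ciita had none. Of the 7 with an entry, 6 held the letters CNNNNAAC followed after 20 to 30 bases by TGATTGG on the gene's own strand. The 5 sequences below are shown because they are the shared feature of genes that did not all change alike. They are written 5′ to 3′ along the gene, with the capitals marking the X-box letters and then the Y-box letters.
H2-Aa, chr17:34287859-34287915, minus strand: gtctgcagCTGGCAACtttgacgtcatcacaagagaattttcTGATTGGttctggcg
H2-Eb1, chr17:34305765-34305820, plus strand: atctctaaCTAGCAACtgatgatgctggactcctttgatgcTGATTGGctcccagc
H2-DMb2, chr17:34145115-34145171, plus strand: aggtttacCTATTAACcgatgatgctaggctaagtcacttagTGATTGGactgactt
H2-Oa, chr17:34092292-34092340, plus strand: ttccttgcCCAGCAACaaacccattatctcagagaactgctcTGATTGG
H2-Ob, chr17:34238807-34238860, plus strand: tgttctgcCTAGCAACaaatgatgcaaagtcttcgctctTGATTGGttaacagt
The gap between the letter groups was 26 bases in H2-Aa, H2-DMb2 and H2-Oa, 25 in H2-Eb1 and 23 in H2-Ob. H2-DMb1 held the pair as well, at a gap of 26 bases. The Y-box letters began 45 to 92 bases before the annotated start in these 6 genes. For H2-DMa, the table of promoters lists 2 starts, and their windows held no such pair, but both lie well upstream of the gene's start in the deposited table and do not cover it. By the gene bounds in the deposited table, the stretches of H2-DMb1 and H2-DMb2 lie within their genes. That of H2-Oa ends at the first base of the gene, and those of H2-Aa, H2-Eb1 and H2-Ob lie upstream. The letters were chosen after the sequences had been read, and a match is a description, not a binding site.

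The libraries held 16611975 to 18596217 counts. After edgeR's low-count filter, 14883 genes were tested, all 10 members among them. A gene was called when edgeR's quasi-likelihood test gave an adjusted p below 0.05 together with a log2 fold change beyond 1 in either direction, and 789 genes were called lower (5.30%) and 205 higher (1.38%) in the DB2313 group. The median log2 fold change of all tested genes was 0.02. Markers of the cocultured cells moved in opposite directions. A list of 25 macrophage markers took 1.31 to 1.33% of all counts in the control libraries and 0.583 to 0.597% in the DB2313 libraries. Of its 23 tested genes, 20 were lower and 3 higher past the adjusted p, beside 24.6% lower and 20.8% higher among all genes. A list of 20 T cell markers took 0.377 to 0.383% and 0.607 to 0.613%, and all 20 were higher. Defining genes of CD8T cells were present in every library. Cd8a stood at 118.36 ± 3.92 CPM (counts scaled to a common library size, SD, n = 3) under control and 171.29 ± 10.2 under DB2313. Cd8b1 stood at 107.26 ± 6.0 and 165.91 ± 2.09 CPM. Cd4 lay above Cd8a and Cd8b1 in every library, at 212.67 ± 2.53 and 293.66 ± 4.58 CPM. Per kilobase of transcript, Cd4 still lay above Cd8a but below Cd8b1. Cd8b1 had 72.325 CPM per kilobase against 52.745 for Cd4 under control, and 111.88 against 72.831 under DB2313. These markers therefore do not show that the T cells were CD8T cells alone. In such bulk samples, fewer cells of a type and less RNA per cell cannot be told apart.

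With TMM scaling, the class II genes were lower in the DB2313 group as a family, but not evenly, whereas on the scale of the macrophage markers 7 members were lower and 2 higher past the adjusted p. Of the 10 members, 8 were called lower against 5.30% of all tested genes, and 0 were called higher. Without the threshold on the fold change, 9 members were lower against a background of 24.6%, and for the same 9 every DB2313 library lay below every control library, which held for 27.5% of all genes in this direction and for 53.1% in either. The median log2 fold change of the members was -1.62. H2-Ob, the β chain of H2-O, was the member that did not pass. The 8 calls held when the libraries were scaled by library size, and also with the T cell markers, which move every value further down. Scaling to the summed counts of the macrophage markers, where Lyz2 weighs most, left 1 call lower, Ciita, and gave 1 call higher, H2-Ob. On that scale H2-Oa was also higher past the adjusted p, and H2-DMa stood at 0.066 (adjusted p = 0.111). The members together took 1.03%, 1.03% and 1.05% of all counts in the control libraries and 0.32%, 0.325% and 0.319% in the DB2313 libraries. That is 3.22-fold less (1.04 ± 0.0114% against 0.321 ± 0.00306%, SD, n = 3 each, exact permutation test, two-sided, p = 0.1, the smallest that 3 against 3 libraries allow).

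**Figure D1:**
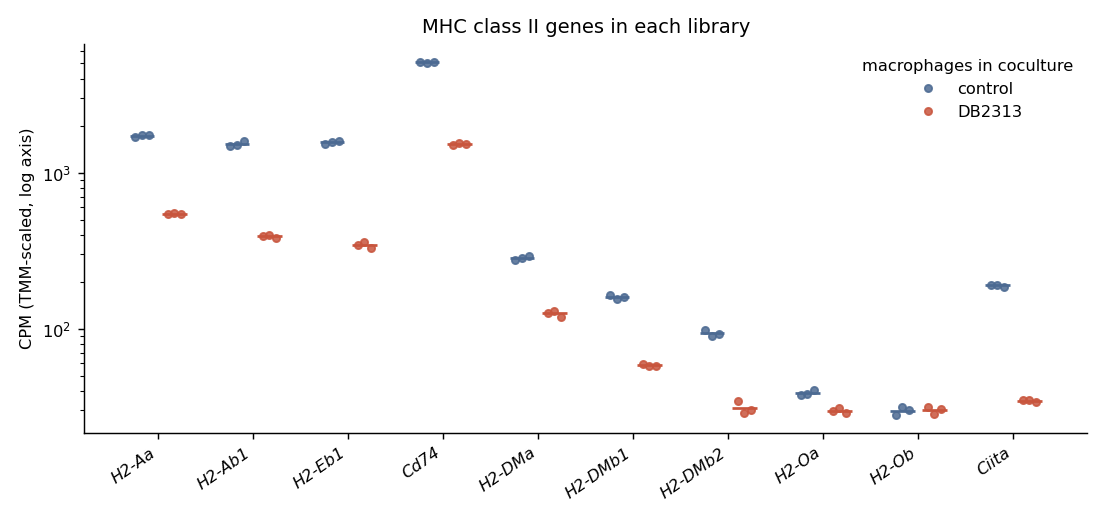
Level of each of the 10 class II genes in each library, in TMM-scaled CPM on a log axis, with 1 point per library and a line at each group's mean. The control and DB2313 points stand apart for 9 genes, from Cd74 at 5083.5 against 1520.3 CPM to H2-Oa at 38.884 against 29.965 CPM, and mix for H2-Ob.

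The classical chains fell to between 21.9 and 31.6% of their control level. H2-Aa (ENSMUSG00000036594, chr17:34282744-34287827, minus strand), the α chain of I-A, had 1689.7, 1736.9 and 1744.7 CPM in the control libraries and 543.06, 551.97 and 539.19 in the DB2313 libraries. The groups were far apart and each was tight, and the log2 fold change was -1.66 (SE 0.0304, 95% interval -1.72 to -1.60, adjusted p = 4.81e-22). H2-Ab1 (ENSMUSG00000073421, chr17:34263209-34269418, plus strand), the β chain that pairs with H2-Aa, had 1483.9, 1504.6 and 1591.9 CPM against 395.18, 395.7 and 378.85. Its log2 fold change was -1.97 (SE 0.0344, interval -2.04 to -1.90, adjusted p = 2.54e-22), so that the interval of the β chain did not reach that of the α chain. H2-Eb1 (ENSMUSG00000060586, chr17:34305877-34316199, plus strand), the β chain of I-E, had 1528.9, 1575.8 and 1601.6 CPM against 342.09, 360.0 and 330.6. With 21.9% of the control level left, it lost most among the 3 classical chains (log2 fold change -2.19, SE 0.0352, adjusted p = 6.43e-23).

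I-E also needs an α chain, H2-Ea, which some laboratory strains do not make. The deposited table lists this locus as the pseudogene H2-Ea-ps, which had 1 count in all 6 libraries together and was not tested. The related β chain gene H2-Eb2 lies next to H2-Eb1 and was weakly expressed. It had 256, 169 and 171 counts in the control libraries and 73, 88 and 89 in the DB2313 libraries (log2 fold change -1.31, SE 0.159, adjusted p = 3.01e-07), without overlap between the groups. On the far side of H2-Eb2 lies Btnl2, a butyrophilin-like gene that was barely expressed and was called higher, with 8, 4 and 7 counts in the control libraries and 30, 18 and 15 in the DB2313 libraries (log2 fold change 1.65, SE 0.456, adjusted p = 0.00488).

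Cd74 (ENSMUSG00000024610), the invariant chain that fills the class II groove until peptides are loaded, was the most abundant member. It had 5087.8, 5033.7 and 5129.2 CPM in the control libraries and 1507.1, 1537.5 and 1516.3 in the DB2313 libraries. By raw count it stood at rank 7 to 8 among all genes in the control group and at rank 35 to 38 in the DB2313 group. The log2 fold change was -1.74 (SE 0.0274, interval -1.80 to -1.68, adjusted p = 5.29e-23), or 3.34-fold lower. Cd74 alone made up 0.492 ± 0.00436% of all counts in control cocultures and 0.157 ± 0.00135% in those with DB2313 (SD, n = 3 each). The microRNA gene Mir5107 overlaps it on the same strand with 16 to 22 counts per control library and 0 to 4 per DB2313 library.

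H2-DM takes the last piece of the invariant chain out of the groove and edits the peptides. Its α chain, H2-DMa (ENSMUSG00000037649, chr17:34135182-34139101, plus strand), had 274.36, 284.76 and 293.38 CPM in the control libraries and 126.52, 129.7 and 119.46 in the DB2313 libraries. It kept 44.1% of its control level (log2 fold change -1.18, SE 0.0392, interval -1.26 to -1.10, adjusted p = 2.43e-17). This was the smallest of the 8 calls. The β chain is encoded by a pair of neighbouring paralogs. H2-DMb1 (ENSMUSG00000079547, chr17:34153072-34160230, plus strand) had 163.83, 153.94 and 160.87 CPM against 59.528, 57.883 and 58.022 (log2 fold change -1.45, SE 0.0423, adjusted p = 2.15e-18). H2-DMb2 (ENSMUSG00000037548, chr17:34143307-34151553, plus strand) had 97.468, 89.461 and 92.911 CPM against 34.603, 28.678 and 30.395 (log2 fold change -1.58, SE 0.0638, adjusted p = 1.07e-15). In both paralogs the groups were well separated. Their sequences are similar, so the division of reads between them is uncertain.

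H2-O pairs with H2-DM and restrains it, and is known mainly from B cells and thymic epithelium. Its chains stood apart from the rest of the family. H2-Oa (ENSMUSG00000024334, chr17:34092340-34095234, plus strand), the α chain, had 37.748, 38.456 and 40.447 CPM in the control libraries and 29.953, 30.902 and 29.038 in the DB2313 libraries. The groups did not overlap, but 77.1% of the control level remained (log2 fold change -0.38, SE 0.0672, interval -0.52 to -0.24, adjusted p = 6.66e-05). The gene BC051537 overlaps H2-Oa on the other strand with 12 to 21 counts per library, against 528 to 682 on H2-Oa. H2-Ob (ENSMUSG00000041538, chr17:34238903-34245907, plus strand) had 28.062, 31.66 and 30.076 CPM in the control libraries and 31.575, 28.62 and 30.612 in the DB2313 libraries. These values were mixed, and a change was not detectable, with a log2 difference of 0.02 (SE 0.0741, interval -0.14 to 0.17, adjusted p = 0.868). The interval lies above that of every other member.

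Ciita (ENSMUSG00000022504, chr16:10480059-10528418, plus strand), the class II transactivator, had the largest change of the 10. It had 191.67, 190.6 and 186.25 CPM in the control libraries and 35.09, 34.882 and 34.194 in the DB2313 libraries. Both groups were narrow, and 18.3% of the control level remained (log2 fold change -2.45, SE 0.043, interval -2.54 to -2.36, adjusted p = 2.54e-22), 5.46-fold lower. Its interval did not overlap that of H2-Eb1, the next member in order of change. The annotation gives Ciita 8 transcripts with 8 different starts, which need not each be a promoter. Ciita is known to have promoters that are used by different cell types, and counts per gene do not tell their transcripts apart. Dexi overlaps Ciita on the other strand with 719 to 787 counts per library, against 596 to 3463 on Ciita. Whether the counting used the strand is not stated, so reads from Ciita and Dexi cannot be told apart where the genes overlap. Dexi itself changed little (log2 fold change -0.16, SE 0.0631, adjusted p = 0.0391).

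**Figure D2:**
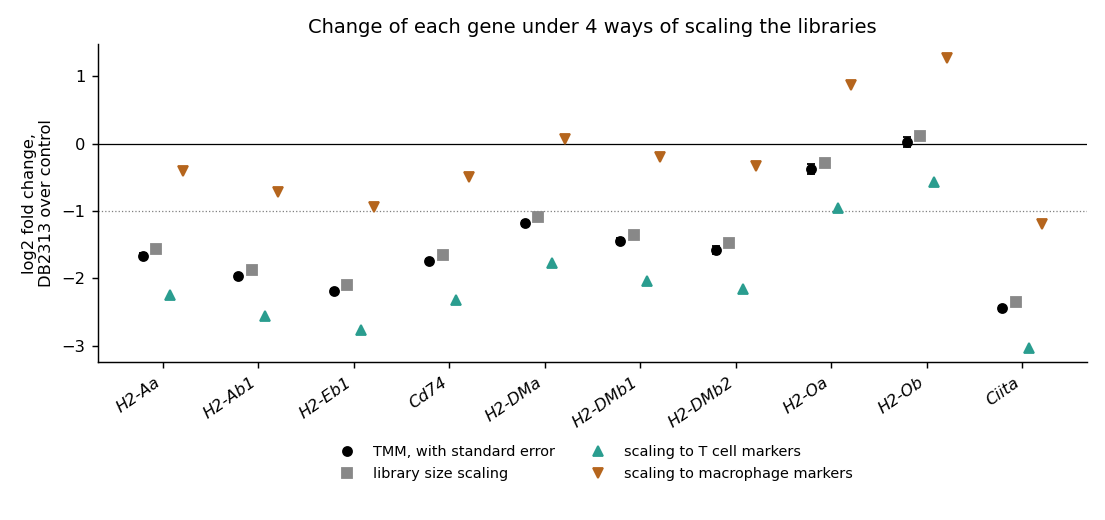
Log2 fold change of each class II gene, DB2313 over control, with TMM scaling (bars are the standard error) and under 3 other ways of scaling the libraries. The order from Ciita at -2.45 to H2-Ob at 0.02 is the same under each scaling, while the points move up when the macrophage markers set the scale and down when the T cell markers do.

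The scaling of the libraries sets where zero lies and shifts all genes nearly alike, so the order of the members stays the same by construction. Scaling to the T cell markers moved the median of all genes by -0.59 on the log2 scale and scaling to the macrophage markers by 1.25, whereas library size scaling moved it by 0.09. Every log2 fold change given here moves by about the same amount under that scaling. Relative to the median of all genes, the members stood between -2.47 (Ciita) and -0.40 (H2-Oa) apart from H2-Ob. As such shifts imply, these differences held within 0.01 under every scaling. The marker scales used the summed counts of a list, so abundant genes weighed most. Lyz2 led the macrophage list with 7691.2 CPM under control (log2 fold change -1.89), before Gpnmb with 1800.3 (-0.32). The median of the list weighs each gene alike, so the members stand elsewhere against it. Relative to the median of the macrophage markers, which was -0.89, Ciita was lower by a log2 difference of -1.56. H2-Eb1 was lower by -1.30, H2-Ab1 by -1.08, Cd74 by -0.85 and H2-Aa by -0.77. H2-DMa lay nearest to that median with -0.29. H2-Oa and H2-Ob were above it by 0.52 and 0.91. These differences from the marker median are descriptions, and were not tested.

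Per kilobase of transcript, Cd74 led the family in both groups. In FPKM (here the CPM per kilobase, with the gene lengths in the table), Cd74 stood at 3605.3 ± 34.0 in the control group, followed by H2-Eb1 at 1325.0 ± 31.1. With these lengths, H2-Ab1 (932.69 ± 35 FPKM) and H2-Aa (919.83 ± 15.9) were next and did not differ beyond their spread (SD, n = 3 each). H2-DMa reached 173.17 ± 5.8 FPKM, H2-DMb1 107.44 ± 3.42, H2-DMb2 54.55 ± 2.35 and H2-Oa 29.592 ± 1.06. Ciita (19.875 ± 0.301 FPKM) and H2-Ob (9.4933 ± 0.572) were lowest. In the DB2313 group Cd74 stood at 1078.2 ± 11.1 FPKM. With the same lengths, H2-Eb1 (290.73 ± 12.5) and H2-Aa (290.68 ± 3.5) now shared a level, above H2-Ab1 at 238.19 ± 5.85. At the low end H2-Oa (22.804 ± 0.709 FPKM) came above H2-DMb2 (18.261 ± 1.78), and H2-Ob (9.6001 ± 0.478) came above Ciita (3.6415 ± 0.0492). So H2-Ob and Ciita changed places between the groups, as did H2-Oa and H2-DMb2. The annotation GENCODE mouse release 21 gives longer exonic lengths for H2-Aa (3798 against 1874 bases), H2-Ab1 (2568 against 1637) and H2-Eb1 (1944 against 1184). Its length equals that used here only for Ciita, so the order of genes at near levels is uncertain.

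Ratios between transcripts within a library do not depend on the scaling, and 7 of them were compared. Each ratio was taken per kilobase, so its level depends on the gene lengths used, whereas the difference between the groups hardly does. The α to β ratio of I-A, H2-Aa over H2-Ab1, was 0.995, 1.01 and 0.957 in the control libraries and 1.2, 1.22 and 1.24 in the DB2313 libraries. It thus shifted toward the α chain. H2-Eb1 over H2-Ab1 went the other way, from 1.42 ± 0.0286 to 1.22 ± 0.0328. Cd74 over H2-Ab1 was 3.87 ± 0.121 and 4.53 ± 0.111. H2-DMa over the sum of its β chains was 1.07 ± 0.0619 and 1.33 ± 0.0799 (SD, n = 3 each).

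The largest shift concerned the balance of the editor and its partner. H2-DMa over H2-Oa was 5.82, 5.93 and 5.81 in the control libraries and 3.38, 3.36 and 3.29 in the DB2313 libraries, a log2 difference of -0.81. H2-Oa over H2-Ob was 3.23, 2.91 and 3.23 against 2.28, 2.59 and 2.28. Ciita over Cd74 was 0.00557, 0.0056 and 0.00537 against 0.00344, 0.00335 and 0.00333, a log2 difference of -0.71. In each of the 7 ratios the groups did not overlap, and each reached p = 0.1 in the exact two-sided permutation test, before and after adjustment over the 7 ratios, which is the smallest p that 3 against 3 libraries allow.

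**Figure D3:**
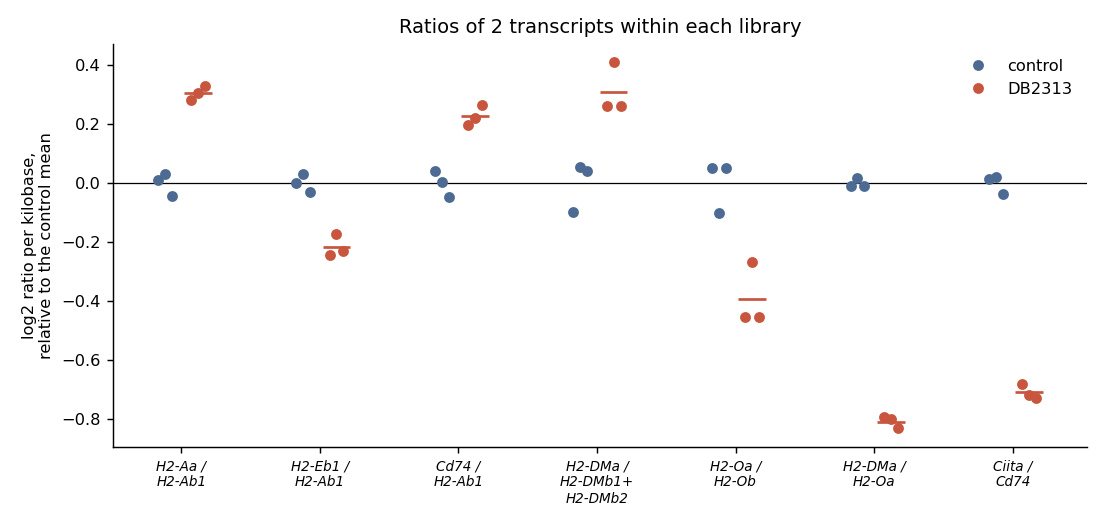
Log2 ratio per kilobase of pairs of class II transcripts in each library, with the mean of the control libraries set to zero and a line at the DB2313 mean. The DB2313 points lie apart from the control points for all 7 ratios, upward for H2-Aa over H2-Ab1 (0.31) and downward most for H2-DMa over H2-Oa (-0.81).

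The members other than Cd74 and Ciita lie together on chromosome 17, where genes of the class I pathway are interspersed with them. From the start of H2-Oa to the end of H2-Eb1 the stretch is 223.86 kb long. Of the 8 members in it, 6 were called lower (5.30% of all genes) and 7 were lower past the adjusted p (24.6% of all genes). Their median log2 fold change was -1.52. The 6 other tested protein-coding genes there were not called, ranged from -0.18 to 0.12 and had a median of 0.07. They include Tap1 and Tap2 (0.07 each), which form the peptide transporter of class I, the immunoproteasome subunits Psmb8 (0.05) and Psmb9 (0.07), and Brd2 (0.12), the one that passed the adjusted p, upward. H2-Ob lies between Tap2 and H2-Ab1. The stretch was chosen after the values were seen.

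**Figure D4:**
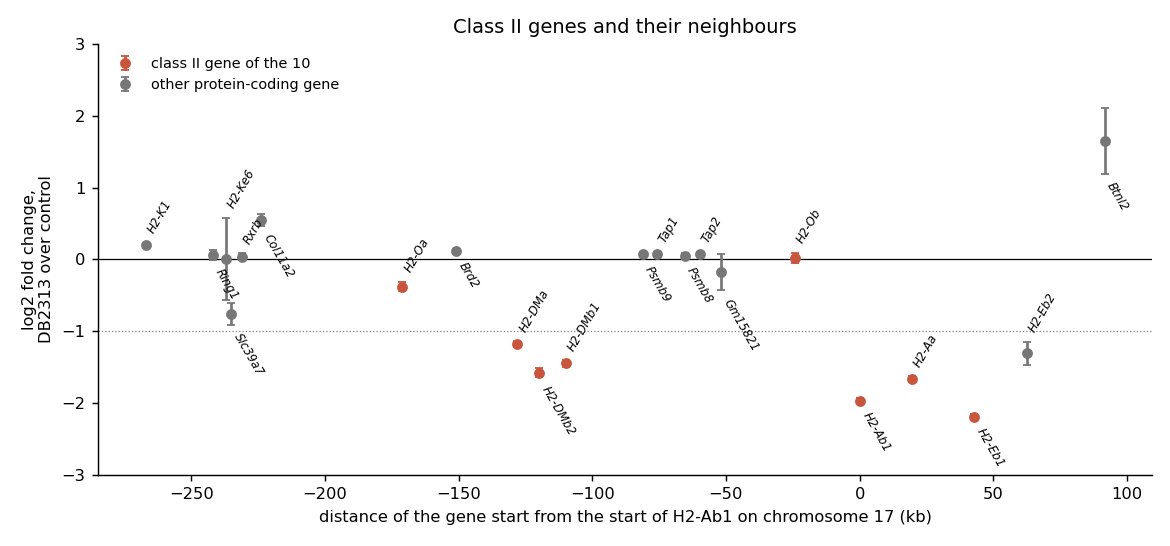
Log2 fold change (DB2313 over control, bars are the standard error) of genes on chromosome 17 against the distance of the gene start from that of H2-Ab1 in kb. The called class II genes lie between -2.19 and -1.18, whereas the other tested genes between H2-Oa and H2-Eb1 lie between -0.18 and 0.12.

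The genes that act on class II transcription did not move as one. Of 25 listed genes, which include Spi1, all were tested, 2 were called lower, 10 were lower and 8 higher past the adjusted p, and 7 did not pass, beside 24.6% lower and 20.8% higher among all genes. With library size scaling 7 were lower and 11 higher. The called genes were Irf4, from 116.64 ± 1.73 to 51.995 ± 2.49 CPM (log2 fold change -1.17, adjusted p = 1.18e-15), and Irf8, from 332.77 ± 4.85 to 157.44 ± 2.99 CPM (-1.08, adjusted p = 1.1e-17), both of them factors that bind DNA together with Spi1 in myeloid and B cells. With library size scaling Irf8 was at -0.985, under the threshold on the fold change, and so was not called. Spi1, the target of DB2313, had 278.2, 289.5 and 290.1 CPM in the control libraries and 159.0, 158.9 and 148.2 in the DB2313 libraries (log2 fold change -0.88, SE 0.0374, adjusted p = 2.57e-15). With TMM scaling it was lower in every DB2313 library but not past the threshold on the fold change, and on the scale of the macrophage markers it would lie above zero. DB2313 acts on the protein, so the transcript does not check the treatment.

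The factors that hold the X and Y boxes changed little. Rfx5 had a log2 fold change of -0.12 (adjusted p = 0.159), Rfxap of 0.23 (adjusted p = 0.0291) and Rfxank of 0.43 (adjusted p = 0.000196). Of the NF-Y subunits, Nfya was lower (-0.34, adjusted p = 3.02e-07), while Nfyb (0.31, adjusted p = 0.000304) and Nfyc (0.22, adjusted p = 0.00453) were higher. The IFN-γ route to Ciita was mixed as well. The receptor chain Ifngr1 was higher (0.47, adjusted p = 2.34e-11) and Ifngr2 lower (-0.34, adjusted p = 8.92e-07), and of the kinases Jak1 was higher (0.27, adjusted p = 3.73e-07) and Jak2 lower (-0.74, adjusted p = 4.56e-15). Irf1 stood at 633.69 ± 13.6 and 631.61 ± 14.3 CPM (SD, n = 3 each, adjusted p = 0.918), but passed upward with library size scaling (log2 fold change 0.090, adjusted p = 0.018).

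Genes listed for class II loading and turnover were lower more often than higher with TMM and library size scaling. The list also holds Cd4, Lag3, Mif, Cd44 and Cxcr4, which do not themselves load or turn over class II. Of 25, 4 were called lower, 18 were lower and 5 higher past the adjusted p (14 and 7 with library size scaling), beside 5.30% called lower, 24.6% lower and 20.8% higher among all genes, and the median log2 fold change was -0.46. With TMM scaling the 5 higher genes were Ctsf, Cd37, Mif, Lag3 and Cd4. March1, the ubiquitin ligase that removes class II from the surface, went from 61.172 ± 0.709 to 18.987 ± 2.24 CPM (-1.69, adjusted p = 6.13e-15). Cst3, the cathepsin inhibitor cystatin C, went from 2435.3 ± 114 to 856.8 ± 48.3 CPM (-1.51, adjusted p = 2.18e-19). The protease Lgmn (-1.37) and the cathepsin Ctsc (-1.15) were the other calls. Ctss, the protease that trims the invariant chain, went from 2033.7 ± 13 to 1163.5 ± 16 CPM (-0.81, adjusted p = 8.58e-17), and the aspartic protease Ctsd by -0.16 (adjusted p = 0.000135). Cd4, the receptor of T cells for class II, was higher (0.47, adjusted p = 4.51e-11), as were the T cell markers.

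Class I genes, which nearly all nucleated cells carry, were described beside them. Of 23 genes of class I presentation, 0 were called in edgeR's quasi-likelihood test in either direction, beside 5.30% lower and 1.38% higher among all genes. Past the adjusted p, 6 were lower and 9 higher, beside 24.6% lower and 20.8% higher among all genes. The median was 0.07. With library size scaling 3 were lower and 15 higher, beside 2852 lower and 4932 higher among all 14883 genes. The heavy chain H2-K1 went from 4898.5 ± 122 to 5607.5 ± 137 CPM (log2 fold change 0.20, adjusted p = 3.82e-06) and H2-D1 from 4092.6 ± 125 to 4514.5 ± 134 (0.14, adjusted p = 0.000396). B2m, the light chain of class I, went from 4483.2 ± 109 to 4192.6 ± 66.8 CPM (-0.10, adjusted p = 0.00603). Nlrc5, the class I counterpart of Ciita, had a log2 fold change of 0.11 (adjusted p = 0.00937), against -2.45 for Ciita.

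Lists of markers were described for the cell types that carry class II. Genes of these lists can be shared between cell types, so a list's median does not measure the number of cells. Among 23 tested macrophage markers, 11 were called lower and 1 higher, beside 5.30% lower and 1.38% higher among all genes. Their median log2 fold change was -0.89. Lyz2, the lysozyme of myeloid cells, went from 7691.2 to 2081.1 CPM (-1.89), Adgre1, which encodes F4/80, by -1.89, Mertk by -2.16, C1qb by -0.81 and Gpnmb by -0.32. The spread was wide, and Ms4a7 was called higher (1.44). Among 14 tested dendritic cell markers, 3 were called lower, and the median was -0.48. Past the adjusted p, 11 were lower and 2 higher, beside 24.6% lower and 20.8% higher among all genes. Itgax, which encodes CD11c, changed by -2.52 and Cd209a by -3.54, whereas Ccr7 (-0.10), Fscn1 (-0.20) and Ccl22 (-0.88) changed less. The list took 0.469 to 0.476% of counts in the control libraries and 0.364 to 0.37% in the DB2313 libraries, and its plasmacytoid marker Siglech had 0 counts.

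B cell markers went the other way at a low level. They took 0.0303 to 0.0309% of counts in the control libraries and 0.0465 to 0.0475% in the DB2313 libraries. The median log2 fold change was 0.51. Past the adjusted p in edgeR's quasi-likelihood test, 8 of 11 tested genes were higher (against 20.8% of all genes) and 0 lower (against 24.6%). Ighm (0.51), Cd79a (0.63), Cd79b (0.47) and the called Ebf1 (1.38) were among them. B cells carry all the members, H2-Oa and H2-Ob included. T cell markers ranged from 0.32 to 0.74, with Tcf7 at 0.56, Lck at 0.64 and Trbc2 at 0.54. Neutrophil markers, which belong to cells without much class II, had the lowest median of the marker lists, at -1.70. Of 11, 8 were called lower and 1 higher, beside 5.30% lower and 1.38% higher among all genes. Ly6g changed by -3.92, Mmp9 by -3.08, S100a8 by -2.49 and S100a9 by -1.72, while Mmp8 changed by -0.27. The part of these cell types in the change of the class II genes was not tested.

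**Figure D5:**
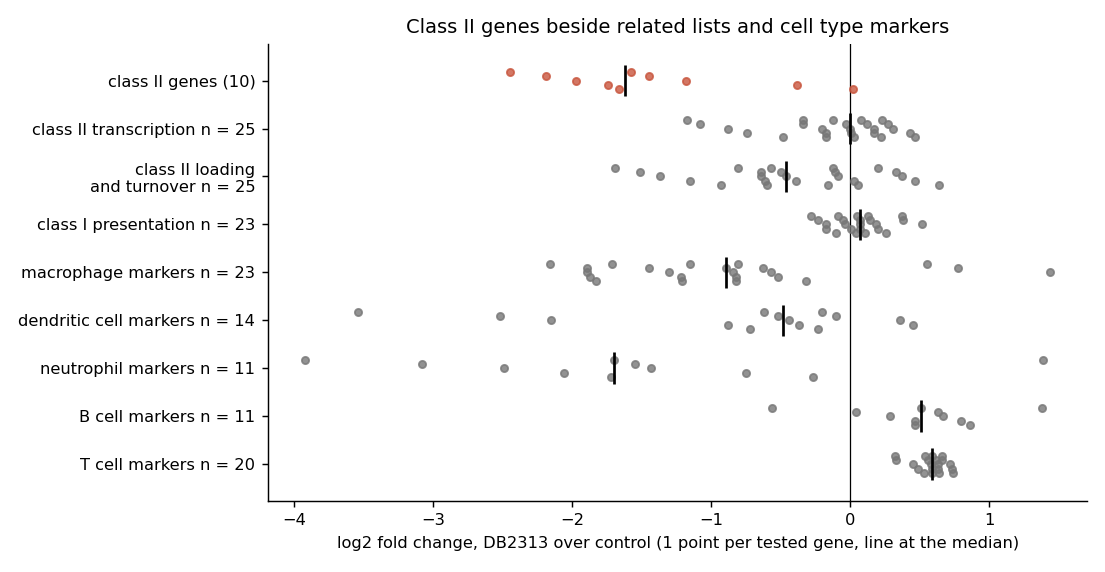
Log2 fold change, DB2313 over control, of the class II genes beside related lists and cell type markers, with 1 point per tested gene and a line at each median. The members' median of -1.62 lies below those of the macrophage (-0.89) and dendritic cell (-0.48) markers and close to that of the neutrophil markers (-1.70), while class I presentation centres on 0.07 and T cell markers on 0.59.

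The pattern of Cd74 over the 6 libraries was compared with that of 9330 protein-coding genes at a mean of at least 10 CPM, by the root mean square difference of centred log2 CPM. The nearest genes that are no members were Bst1 (0.0309), Ngp (0.0376), Rnf128 (0.0447), Pla2g7 (0.0447) and S100a9 (0.0455), with log2 fold changes of -1.70 to -1.82. Among the members, H2-Aa ranked 3 of all genes (0.0433). H2-Ab1 ranked 48, H2-DMb2 51 and H2-DMb1 70, H2-Eb1 132, H2-DMa 181 and Ciita 260. H2-Oa (1361) and H2-Ob (4772) were far down this order. With 2 groups, such a likeness mostly reflects the size of the change.

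The pair of X-box and Y-box letters, chosen after the members' sequences had been read, was rare among all promoters. Its presence in the members is therefore no test. On either strand it was found in 85 of 27025 genes with a RefSeq promoter (0.315%), and in the order and strand of the members in 38 (0.141%). Singly the letters are common, with TGATTGG in 9% and CNNNNAAC in 83.8% of genes (both strands searched). The 6 members with the pair had log2 fold changes from -2.19 (H2-Eb1) to 0.02 (H2-Ob). Of the 79 other genes with the pair, 42 were tested, 1 was called lower (H2-Eb2) and 2 higher, and the median was 0.12. Among all tested genes, 5.30% were called lower and 1.38% higher. The Spi1 letters GAGGAAG were in the windows of 0 of the 7 members with an entry and of 15.4% of all genes. So few genes cannot show a difference from that share. Ciita, Cd74 and H2-Ab1 had no entry and were not searched, and the windows of H2-DMa do not cover its start. CCAAT, the reverse complement of ATTGG within the Y-box letters and so overlapping them, was in 7 of 7 and in 41.1%. A window of this length shows only which letters it holds.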

How the data were processed

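RNA-seq of 6 samples was analysed, 3 per group, grouped by the labels' treatment. The treatment protocol in the labels reads the same for all samples and names DB2313, so the grouping rests on the sample characteristics. The authors deposited raw counts per gene. The paper names LifeScope for alignment and counting, while the submitters' processing notes list CASAVA 1.8, HISAT2 2.0.5 and featureCounts 1.5.0-p3. The genome build, annotation and strand setting are not given in the sources used here. GENCODE mouse release 21 shares 54409 genes with the table and gives the same GRCm38 coordinates for 53499 of them (98.3%), but for only 3 of the 10 members. Gene coordinates are those of the table, promoter coordinates those of RefSeq.

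The members and lists were chosen with earlier results of these data known. The test was edgeR's quasi-likelihood test (glmQLFit and glmQLFTest after filterByExpr and TMM; edgeR 4.0.16, R 4.3.3), with Benjamini-Hochberg adjustment over all 14883 tested genes. Calls required an adjusted p below 0.05 together with a log2 fold change beyond 1 in either direction. CPM were TMM-scaled. Shares and ratios were compared by exact permutation tests. The common biological coefficient of variation was 4.67%, and a count of 0 allows up to 3 counts, a limit for counting error alone, because reads without molecular identifiers do not count molecules.

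Genes named are the members, Spi1, the 3 most abundant and the 2 most changed called genes of each list, and the 5 nearest to Cd74, apart from 1 gene that is not reported here. The RFX, NF-Y and IFN-γ route genes, Lgmn, Ctsc, Cd4, Cd8a, Nlrc5, Ms4a7, Siglech and H2-Ea-ps were chosen after their values were seen. So were Ctsf, Cd37, Mif, Lag3, Cd44, Cxcr4 and Cd8b1, genes overlapping members and those neighbouring them. Alternatives were upper quartile and library size scaling, DESeq2 1.42.0, scaling to T cell or macrophage markers, other filters, glmTreat, a replicate block and leaving out each library. The scripts were tested on simulated data.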

Additional observations from a re-analysis of the deposited data

How the results depend on the processing

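The count of 8 members called lower was the same under DESeq2, library size and upper quartile scaling, both other filters and glmTreat (a test against the fold threshold). It was also the same with the replicate block and without each library in turn (8 to 8). T cell marker scaling kept the count as well, but it moves every member further down. The block also left 9 members past the adjusted p and 790 lower and 201 higher genes among all. The replicate numbers did not pair the samples (correlations of same-numbered libraries 0.00251, -0.0111 and -0.0051), so the block only shares a number. With the macrophage markers as the scale, 1 member was called lower and 1 higher (H2-Ob, 1.266), 7 were lower and 2 higher past the adjusted p, H2-DMa was at 0.066 and H2-Oa at 0.873. With the T cell markers, 10 members were lower past the adjusted p and H2-Ob was at -0.568. H2-Ob lay between -0.027 and 0.060 when single libraries were left out. H2-Oa did not pass under glmTreat (-0.376, adjusted p = 1). Irf1 was at 0.090 with library size scaling, where it passed (adjusted p = 0.018), at 0.059 with upper quartile scaling (adjusted p = 0.148), and between -0.020 and 0.015 without single libraries. Ctsd (library size scaling), B2m and Ccr7 (library size and upper quartile scaling) did not pass. Among all genes, the 789 lower calls became 400 under glmTreat, 2497 with T cell and 133 with macrophage marker scaling, and the 205 higher calls 103 with at least 10 counts in every library, 30 under glmTreat, 51 and 11161. Past the adjusted p alone, 3666 lower genes became 11503 and 298, and 3096 higher genes became 175 and 13603, or 4932 with library size scaling (2852 lower). In class I presentation, 3 genes were lower and 15 higher with library size scaling, and 14 higher with upper quartile scaling. Beyond what the scaling itself sets, the cause of these shifts was not tested. Counts per gene do not separate isoforms, strands or the cells of a coculture.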
